A study of Mus musculus with 9 samples.

Results

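The comparison described here is of mouse macrophages given ProNa and then bacterial lipopolysaccharide (LPS) with macrophages given LPS alone, across all genes. Samples were chosen by title: the 3 titled ProNa and the 3 titled LPS, 6 of the 9 in the series. All are RAW264.7 cells, a transformed mouse line with macrophage properties, with no engineered allele named in the labels. The protocol text is the same for every sample: 1 mM ProNa or none for 24 h, then LPS at 100 ng/mL for 12 h. By title the LPS group is read as cells that had LPS without ProNa, the ProNa group as cells that had ProNa first, and the other 3 samples, titled CON, as cells that had neither, although no label states the treatment sample by sample. ProNa is not spelled out in the labels and is read here as sodium propionate. No group had ProNa without LPS, so an action of ProNa on the response to LPS cannot be told apart from an action that does not need LPS. Nothing in the labels says that the 3 samples of a group were separate cultures, so p-values may reflect technical spread among these samples only.

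Expression is given as FPKM, fragments per kilobase of transcript, scaled to the mapped fragments of the library and summed over the transcripts of a gene. Each FPKM value below is the authors' mean of a group, and values assigned to single samples were not used here, so no SD stands beside it and the overlap of samples between groups is not described. Fold changes and adjusted p-values are those of the authors' deposited table, a DESeq2 fit across all genes with Benjamini-Hochberg adjustment. A gene rose, fell or was called where that adjusted p was under 0.05. Read depth is unknown, since no counts were used. In bulk RNA, fewer cells of a type and less RNA per cell cannot be told apart. All 9 macrophage identity genes checked were present, from 27.7 FPKM (Csf1r) to 823 FPKM (Cd68) in LPS and from 47.1 FPKM (Adgre1) to 1586 FPKM (Lyz2) in ProNa, with Itgam, Spi1, Mpeg1, Tyrobp and Fcer1g between. The extraction text speaks of colonic segments, but none of 15 epithelial markers reached a mean of 0.5 FPKM, and the highest stood at 0.127 FPKM.

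Propionate is a short-chain fatty acid that gut bacteria release from fibre, and it is known to act on cells through G protein-coupled receptors, by inhibiting histone deacetylases and as a fuel. LPS is sensed by Toll-like receptor 4, whose adaptor MyD88 leads to NF-kB and inflammatory cytokines, and whose adaptor TRIF leads to IRF3 and type I interferon. Secreted interferon then acts through its receptor and a complex of STAT factors and IRF9, which binds the interferon-stimulated response element and switches on antiviral genes. Secretory load in the endoplasmic reticulum (ER) is met by the unfolded protein response, in which the sensors PERK, IRE1 and ATF6 act through the factors ATF4, XBP1 and cleaved ATF6, and these bind elements in the promoters of chaperone and degradation genes.

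The promoters of 6 genes that moved in this comparison are shown because they carry the elements that these pathways use. Each is the 250 bases before the transcription start, 5′ to 3′ on the strand of the gene, from RefSeq on build GRCm38.p6, which is not the build of the authors' alignment. Capitals mark the match named after each gene.
Isg15, chr4:156200819-156201068, minus strand, interferon-stimulated response element: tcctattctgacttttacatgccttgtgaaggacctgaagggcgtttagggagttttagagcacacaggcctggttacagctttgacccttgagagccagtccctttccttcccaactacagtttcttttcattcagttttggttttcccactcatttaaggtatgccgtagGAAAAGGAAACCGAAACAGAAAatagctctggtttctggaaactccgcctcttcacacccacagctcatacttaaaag
Ifit3, chr19:34583279-34583528, plus strand, interferon-stimulated response element: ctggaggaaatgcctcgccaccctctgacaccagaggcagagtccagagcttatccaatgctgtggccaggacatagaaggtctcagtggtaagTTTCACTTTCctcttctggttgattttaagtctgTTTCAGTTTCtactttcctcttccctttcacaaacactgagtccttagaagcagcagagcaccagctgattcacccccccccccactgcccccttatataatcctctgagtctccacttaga
Cxcl10, chr5:92348890-92349139, minus strand, interferon-stimulated response element: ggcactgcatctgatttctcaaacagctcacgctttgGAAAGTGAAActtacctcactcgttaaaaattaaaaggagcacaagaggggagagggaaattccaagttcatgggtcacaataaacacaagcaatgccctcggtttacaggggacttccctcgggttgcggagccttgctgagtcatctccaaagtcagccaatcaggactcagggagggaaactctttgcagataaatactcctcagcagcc
Hspa5, chr2:34771840-34772089, plus strand, ER stress response element: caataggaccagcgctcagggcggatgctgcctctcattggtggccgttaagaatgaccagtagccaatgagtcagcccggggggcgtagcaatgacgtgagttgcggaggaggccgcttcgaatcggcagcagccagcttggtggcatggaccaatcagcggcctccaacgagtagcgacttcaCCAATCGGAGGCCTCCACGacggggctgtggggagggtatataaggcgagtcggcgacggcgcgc
Herpud1, chr8:94386179-94386428, plus strand, ATF4 element: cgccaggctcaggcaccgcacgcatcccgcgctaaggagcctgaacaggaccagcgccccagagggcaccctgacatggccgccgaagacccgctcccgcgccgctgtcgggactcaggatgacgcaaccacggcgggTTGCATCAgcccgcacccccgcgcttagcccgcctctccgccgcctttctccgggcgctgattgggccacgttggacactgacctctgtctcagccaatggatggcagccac
Cxcl3, chr5:90785851-90786100, plus strand, kappaB site: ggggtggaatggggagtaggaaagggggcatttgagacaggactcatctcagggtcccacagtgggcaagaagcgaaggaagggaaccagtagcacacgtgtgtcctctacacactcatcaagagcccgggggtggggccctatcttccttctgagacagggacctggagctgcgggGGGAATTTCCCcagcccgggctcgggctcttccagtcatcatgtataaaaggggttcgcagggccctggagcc

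In the Isg15 promoter 3 overlapping matches to the interferon-stimulated response element began 78, 72 and 66 bases before the start. Ifit3 held 2 matches, both on the opposite strand, 156 and 122 bases before the start, and Cxcl10 held 1, 213 bases before it. The Hspa5 match to the ER stress response element began 65 bases before the start, and the Herpud1 match to the ATF4 element lay on the opposite strand, 112 bases before it. The kappaB site of Cxcl3, the element that NF-kB binds, was read on both strands at overlapping positions that began 73 and 72 bases before the start. Isg15, Ifit3 and Cxcl10 were higher in ProNa than in LPS, and Hspa5, Herpud1 and Cxcl3 were lower.

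Of 12471 genes with a mean of at least 0.5 FPKM over LPS and ProNa, 11838 had an adjusted p under 1 (the authors' deposited table) and are the genes tested here, and the other 633 are listed with an adjusted p of 1. Of the genes tested, 2072 were higher in ProNa, 17.5% of them, and 1780 were lower, 15% (the authors' deposited table). Most changes were small: the median log2 fold change was 0.47 among genes that rose and -0.42 among genes that fell. By at least 1.5-fold, 781 genes rose (6.6%) and 460 fell (3.89%), and by at least 4-fold 28 rose and 8 fell. The share of genes called grew with expression, from 8.24% of genes with a mean of 0.5 to 1 FPKM to 54.3% of genes at 100 FPKM and over. In the class of 100 FPKM and over 455 genes rose and 128 fell of 1074, whereas between 5 and 20 FPKM 541 rose and 707 fell of 4012.

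**Figure D1:**
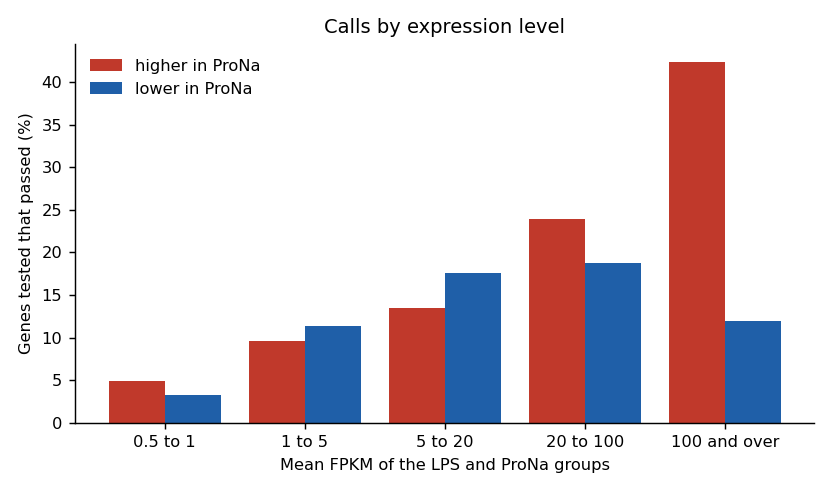
Percentage of genes tested that were higher (red) or lower (blue) in ProNa than in LPS, by class of mean FPKM over both groups. Falls outnumber rises from 1 to 20 FPKM (260 rises and 310 falls from 1 to 5), and rises outnumber falls from 20 FPKM upward (777 rises and 609 falls from 20 to 100).

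The balance of rises and falls rested on the scale. For the median gene the fold change of the authors' deposited table exceeded what the 2 group means of FPKM give by 0.13 on the log2 scale. With that shift subtracted from every gene, here called the FPKM scale, rises made up 29.3% of the calls in place of 53.8%, with 1339 rises and 3238 falls. By at least 1.5-fold 532 rose and 868 fell on the FPKM scale, so the balance of 781 rises and 460 falls turned as well. Counts for each gene group are therefore given on both scales wherever they differ. The background of counts on the FPKM scale is 1339 rises and 3238 falls among 11838 genes tested. The percentages given earlier (17.5% and 15%) hold for the authors' scale only. The gene groups were chosen with results of these data known, and their counts are a description beside the background of the same scale.

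**Figure D2:**
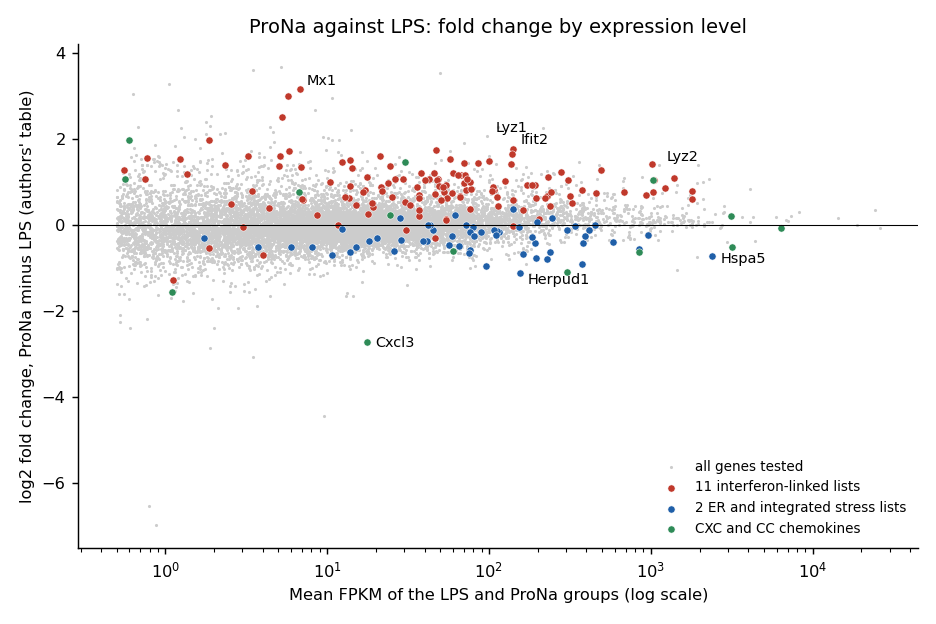
Log2 fold change of ProNa against LPS in the authors' deposited table (vertical) against mean FPKM of both groups (horizontal, log scale), 1 point a gene. Genes of the 11 interferon-linked lists (red) lie mostly above 0, those of the 2 stress lists (blue) mostly below it, and chemokines (green) on both sides, with Mx1 at 3.16 and Cxcl3 at -2.73.

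The 12 largest rises among called genes with a mean of at least 5 FPKM included the interferon-induced genes Mx1, Ifit1bl1 and Ifi205. Ifit1bl1 stood at 1.38 FPKM in LPS and at 10.02 FPKM in ProNa, and the other two are described with their families. Ms4a4c, a membrane protein of the MS4A family, led with 1.0 FPKM in LPS and 9.31 FPKM in ProNa, 12.7-fold by the authors' deposited table (adjusted p = 1.1e-19), and CON stood at 3.42 FPKM. Rgs16, which speeds the shut-off of G protein signals, had 2.64 and 18.7 FPKM and Rgcc, a regulator of the cell cycle, 2.51 and 14.4 FPKM. Fpr2, a receptor for formylated peptides, stood at 5.37 FPKM in LPS and at 22.7 FPKM in ProNa against 0.18 FPKM in CON. The matrix protein gene Tnc (tenascin C) had 3.8999 and 14.8 FPKM. The remaining members were Lyz1, described with lysozyme, and 3 genes with model or pseudogene names. Gm49832 had 13.5 and 85.7 FPKM (adjusted p = 9.3e-04, the authors' deposited table), with CON at 77.4 FPKM, and Gm18445 43.8 and 183 FPKM. The log2 fold change of Gm49832 is imprecise. Its standard error, implied by the deposited p-value taken as from a Wald test, was 0.93, against 0.39 for Ms4a4c. The ribosomal pseudogene Rpl35a-ps2 had 80.5 and 349 FPKM and is uncertain, because reads can be split between near-identical copies. Ms4a4c, Mx1, Ifit1bl1, Ifi205, Rgs16, Rgcc and Tnc were under 5 FPKM in LPS. These genes reached the minimum mean only through their ProNa level, so the rule favours large folds from a low LPS level.

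The 12 largest falls by the same rule included receptors, transporters, secreted signals and model genes. Cxcl3 and Il1f9, which encode secreted signals, and Herpud1 are described with their groups. Sstr5, a somatostatin receptor, stood at 20.3 FPKM in LPS and at 6.05 FPKM in ProNa and was listed at 0 in CON. Ptafr, the receptor for platelet-activating factor, had 13.4 and 5.42 FPKM, with CON at 6.997 FPKM. The authors' deposited table gave 3.002-fold (adjusted p = 1.5e-46) and 2.26-fold (adjusted p = 5.5e-23) for these receptors. Aqp9, a channel for water and glycerol, had 11.8 and 4.89 FPKM, Slc43a3, a transporter, 12.8 and 5.203 FPKM, Sh2b2, a signalling adaptor, 10.9 and 4.65 FPKM, and Efcab6 20.4 and 5.72 FPKM. Gm20536, Gm7497 and Bcl2a1a completed the 12. Gm20536 had the largest log2 fold change of these, -4.43 (adjusted p = 0.0072, the authors' deposited table), from 18.5 to 0.707 FPKM, and Gm7497 had 22.3 and 6.47 FPKM. The size of the Gm20536 change is imprecise, with an implied standard error of 1.4, against 0.185 for Gm7497. Bcl2a1a, an anti-apoptotic gene with near-identical copies, had 46.3 and 16.3 FPKM, while its relatives Bcl2a1b (155 and 145 FPKM) and Bcl2a1d (98.9 and 91.9 FPKM) were not called. Gm20536, Cxcl3, Sh2b2 and Aqp9 were under 5 FPKM in ProNa and reached the minimum mean only through their LPS level.

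By absolute change the largest rises among called genes were of very abundant transcripts. Spp1, which encodes the secreted protein osteopontin, had the largest gain of the called genes, from 22331 FPKM in LPS to 26114 FPKM in ProNa, 1.28-fold by the authors' deposited table. Odc1, the first enzyme of polyamine synthesis, had 3134 and 5050.0 FPKM, and the metal-binding gene Mt2 had 1155 and 2770.3 FPKM. Cytoskeletal genes were also in this set: Actb had 1565 and 2993 FPKM, Actg1 1379 and 2491 FPKM and Tmsb4x, which binds actin monomers, 1486 and 2701 FPKM. Actb, often used as a reference gene, was 2.095-fold higher in ProNa (the authors' deposited table, adjusted p = 5.1e-66). Prdx1, a peroxidase, had 7754 and 8632 FPKM, and Lyz2, Isg15 and Slfn4 made up the rest. Among called genes the largest absolute falls included those of Sqstm1, Cxcl2, Hspa5, Hmox1, Lcn2, Ccl2, Hsp90b1, Ubb and Ddit3. Of these, Hspa5, Hsp90b1 and Ddit3 are ER chaperone or stress genes. Genes that were not called did not enter this ranking, whatever their difference in FPKM. Ubb, a polyubiquitin gene, had 1301 and 921 FPKM.

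Most interferon-stimulated genes were higher in ProNa than in LPS. Over 11 lists of such genes, from IFIT proteins to the immunoproteasome, 131 of 139 genes were tested. Of the 131, 115 rose, 3 fell and 13 did not pass (the authors' deposited table). Their median log2 fold change was 0.85, against 0.00023 over all genes tested. On the FPKM scale 112 rose and 5 fell. Among all genes tested 17.5% rose.

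The IFIT proteins bind foreign RNA and block its translation. Ifit1, Ifit2 and Ifit3 had 80.3, 68.8 and 72.4 FPKM in LPS and 195.1, 213 and 205 FPKM in ProNa, against 5.11, 8.59 and 9.52 FPKM in CON. Ifit2 was 3.396-fold higher in ProNa (the authors' deposited table, log2 1.76, adjusted p = 1.8e-87), and its standard error on the log2 scale was 0.087, as implied by the deposited p-value taken as from a Wald test. Ifit3 and its near-identical copy Ifit3b cannot be fully separated. In this list of IFIT and IFITM genes 15 of 16 tested rose and 0 fell (the authors' deposited table), and Ifi27 did not pass. The membrane protein gene Ifitm3, which blocks viral entry, was already at 1924 FPKM in CON and stood at 1396 FPKM in LPS and at 2207 FPKM in ProNa. Ifi27l2a had 862 FPKM in CON, 126 FPKM in LPS and 217 FPKM in ProNa. The LPS means of these genes thus lay on either side of CON, while each rose from LPS to ProNa.

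Among antiviral effectors, 13 of 15 tested rose and 1 fell (the authors' deposited table). Mx1, a GTPase that acts against influenza viruses, had 1.49 FPKM in CON, 1.78 FPKM in LPS and 11.8 FPKM in ProNa. In the authors' deposited table Mx1 was 8.91-fold higher in ProNa than in LPS (log2 3.16, implied standard error 0.209, adjusted p = 2.2e-49). Isg15, a ubiquitin-like modifier, had 62.4, 941 and 1840.2 FPKM in CON, LPS and ProNa, and its protease Usp18 73.1, 216 and 403 FPKM. The ISG15-conjugating enzyme Ube2l6 was lower in LPS than in CON (49.4 and 67.2 FPKM) and had 122 FPKM in ProNa. Rsad2, which encodes viperin, had 721 and 1359.7 FPKM, Samhd1, which depletes nucleotides, 183 and 376 FPKM, and Bst2, which tethers virions, 539 and 835 FPKM. The exception was Shfl, an inhibitor of ribosomal frameshifting, with 54.2 and 39.2 FPKM (adjusted p = 0.0012 in the authors' deposited table).

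The OAS enzymes sense double-stranded RNA and make an oligoadenylate messenger. Of the 9 tested genes of this system 8 rose and 0 fell (the authors' deposited table), 7 of them on the FPKM scale. Oasl1, which limits Irf7 translation, had 927 and 1533 FPKM and Oasl2 37.7 and 82.2 FPKM. The list median of 0.58 stood beside 1.13 for the IFIT and IFITM list, a difference that was not tested. The Oas1 genes lie in a cluster of similar copies, and Oas1g (282 and 366 FPKM) and Oas1a (118 and 164 FPKM) share that uncertainty.

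The 2 families of interferon-induced GTPases that attack vacuoles of intracellular microbes were higher in ProNa. Of the guanylate-binding proteins 8 of 9 tested rose (the authors' deposited table) and Gbp8 was not called. Gbp2b had 7.66 and 20.04 FPKM, Gbp2 7.103 and 17.6 FPKM and Gbp5 2.71 and 7.49 FPKM, from 0.58, 0.667 and 0.0866 FPKM in CON. The list median was 1.27. All 7 immunity-related GTPases tested rose, on both scales (the authors' deposited table). Ifi47 had 23.2 and 71.3 FPKM, Irgm1 88.8 and 164 FPKM and Igtp 29.5 and 61.9 FPKM.

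PYHIN proteins sense DNA in the nucleus or cytosol. In this family 11 of 12 tested rose (the authors' deposited table) and the inflammasome sensor Aim2 was not called (54.6 and 53.5 FPKM). Ifi204 had 53.05 and 146 FPKM, Ifi209 32.1 and 82.8 FPKM and Ifi205 1.64 and 8.84 FPKM. Genes of this cluster are similar in sequence, so reads may be shared among them. Schlafen genes, which restrict proliferation and translation, rose in 6 of 8 tested cases (the authors' deposited table). Slfn4 had 157, 589.9 and 1452 FPKM in CON, LPS and ProNa and Slfn5 47.2 and 94.6 FPKM, and Slfn3 was not called.

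Of the PARP and TRIM genes linked to interferon, all 15 tested rose (the authors' deposited table), 14 of them on the FPKM scale. Parp14 had 53.8 and 98.8 FPKM, Parp9, which acts with the ubiquitin ligase Dtx3l, 36.5 and 62.3 FPKM, and Trim30a 38.9 and 65.7 FPKM. Among cytosolic and endosomal nucleic acid sensors 9 of 13 rose and 1 fell (the authors' deposited table). The RNA sensors Ifih1 (MDA5), Ddx58 (RIG-I) and Dhx58 (LGP2) had 39.4, 59.7 and 33.3 FPKM in LPS and 69.8, 96.1 and 63.7 FPKM in ProNa. Tlr3, which senses double-stranded RNA, rose from 9.09 to 19.4 FPKM, whereas Tlr9, the endosomal DNA sensor, fell from 5.12 to 2.86 FPKM. The signalling genes Mavs, Sting1 and Tbk1 were not called.

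Several factors of the interferon pathway rose, and none of its receptors passed the test. Of 18 STAT, JAK and IRF genes tested 11 rose and 1 fell (the authors' deposited table), and 7 rose and 3 fell on the FPKM scale. Irf7, which amplifies interferon transcription, had 279 and 679 FPKM, Stat2 50.9 and 82.5 FPKM and Irf5 72.9 and 106 FPKM. Irf9, the DNA-binding partner of the STAT factors, rose from 40.03 to 49.05 FPKM, and Irf3 was not called. Irf4, linked to alternative activation, fell from 3.68 to 1.85 FPKM. Of 12 interferon and receptor genes 5 were tested, all of them receptor genes, and 0 were called (the authors' deposited table). On the FPKM scale 1 of them was lower. Ifnb1 was at 0.18 FPKM in LPS and 0.317 FPKM in ProNa at this single time point, below the minimum for testing, and Ifna4 was listed at 0 in all groups. Ifnar1 had 22.7 and 20.5 FPKM and Ifnar2 38.3 and 33.2 FPKM (adjusted p = 0.97 and 0.34, the authors' deposited table).

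Genes of antigen presentation on class I molecules were also higher. Of the genes listed, 18 of 21 tested rose and 1 fell (the authors' deposited table), and 17 and 3 did so on the FPKM scale. Tap1 and Tap2, the peptide transporter, had 50.2 and 30.7 FPKM in LPS and 97.01 and 43.4 FPKM in ProNa. The classical class I genes H2-K1 and H2-D1 had 753 and 813 FPKM in LPS and 1126 and 1262 FPKM in ProNa, and B2m, their common light chain, 1515 and 2088 FPKM. In CON H2-K1 had 853 FPKM and B2m 1479 FPKM. Class I genes are alike in sequence, so values of single H2 genes are uncertain. Calr, an ER chaperone in the same list, fell from 1087 to 835 FPKM. Of class II genes only Cd74 and H2-DMa were tested, and Cd74, the invariant chain, rose from 342 to 389 FPKM on the authors' scale but not on the FPKM scale.

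Genes of the immunoproteasome, the form of the proteasome that interferon induces, were higher. Of the 7 genes tested 6 rose (the authors' deposited table, list median log2 fold change 0.79). The remaining gene had a log2 fold change of -1.29 and was not called. The catalytic subunits Psmb8, Psmb9 and Psmb10 had 80.2, 14.4 and 41.2 FPKM in LPS and 130.4, 34.3 and 87.7 FPKM in ProNa, with CON means above those of LPS (102, 33.6 and 75.7 FPKM). Among 32 constitutive subunits 26 rose and 0 fell (the authors' deposited table, list median 0.26), but 13 rose and 1 fell on the FPKM scale. Among all 1074 genes of 100 FPKM and over 455 rose and 128 fell on the authors' scale. The standard catalytic subunits Psmb5 and Psmb6 were not called (217 and 224 FPKM, 466 and 439 FPKM), and Psma5, a structural subunit, rose from 247 to 326 FPKM. The difference between these medians was not tested.

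Promoter windows of 300 bases, 250 before and 50 after the start, were at hand for 8886 of 11830 tested gene symbols, 11321 windows in all. The interferon-stimulated response element, searched as GAAANNGAAA on both strands, was in 3.20% of all windows, 11.6% of those of genes at least 1.5-fold higher and 0.969% of those of genes at least 1.5-fold lower. In windows of the interferon lists its share was 45.7% (53 of 116). The gamma-activated sequence, searched as TTCNNNGAA, which reads the same on both strands, was in 6.91% of all windows, 8.53% for the higher genes, 7.02% for the lower ones and 17.2% for the interferon lists (20 of 116). The kappaB site was in 10.2% of all windows, 13.8% for the higher and 11.6% for the lower genes, and in 21.6% for the interferon lists. The ATF4 element, searched as TGATGNAA, was in 2.33% of all, 4.2% for the higher and 5.33% for the lower genes. The ER stress response element, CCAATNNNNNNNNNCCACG, was in 0.124% of all windows (14 windows) and in 16.7% of windows of the stress lists (9 of 54). These shares are descriptions of letters in fixed windows and were not tested. The windows of 1 gene can overlap.

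**Figure D3:**
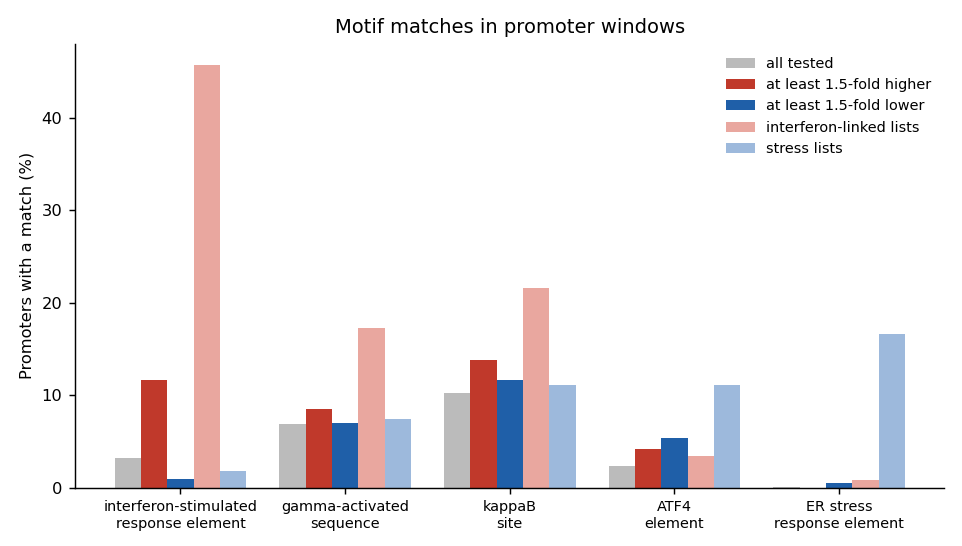
Percentage of 300-base promoter windows with at least 1 match on either strand to each of 5 motifs, for all genes tested, genes at least 1.5-fold higher or lower in ProNa than in LPS, and the interferon-linked and stress lists. The interferon-stimulated response element stands at 11.6% in higher and 0.969% in lower genes, and the ER stress response element is near 0 except in the stress lists at 16.7%.

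Genes of the unfolded protein response were mostly lower in ProNa. In the list of XBP1, ATF6 and ERAD genes (ERAD is the degradation of misfolded ER proteins) 27 of 36 tested fell and 1 rose (the authors' deposited table, list median log2 fold change -0.30), and 32 fell and 0 rose on the FPKM scale. In the list of PERK, ATF4 and CHOP genes 10 of 21 fell and 1 rose (the authors' deposited table, list median -0.31), and 14 fell and 1 rose on the FPKM scale. Together 37 of the 57 tested genes fell, where 15% of all genes tested did.

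**Figure D4:**
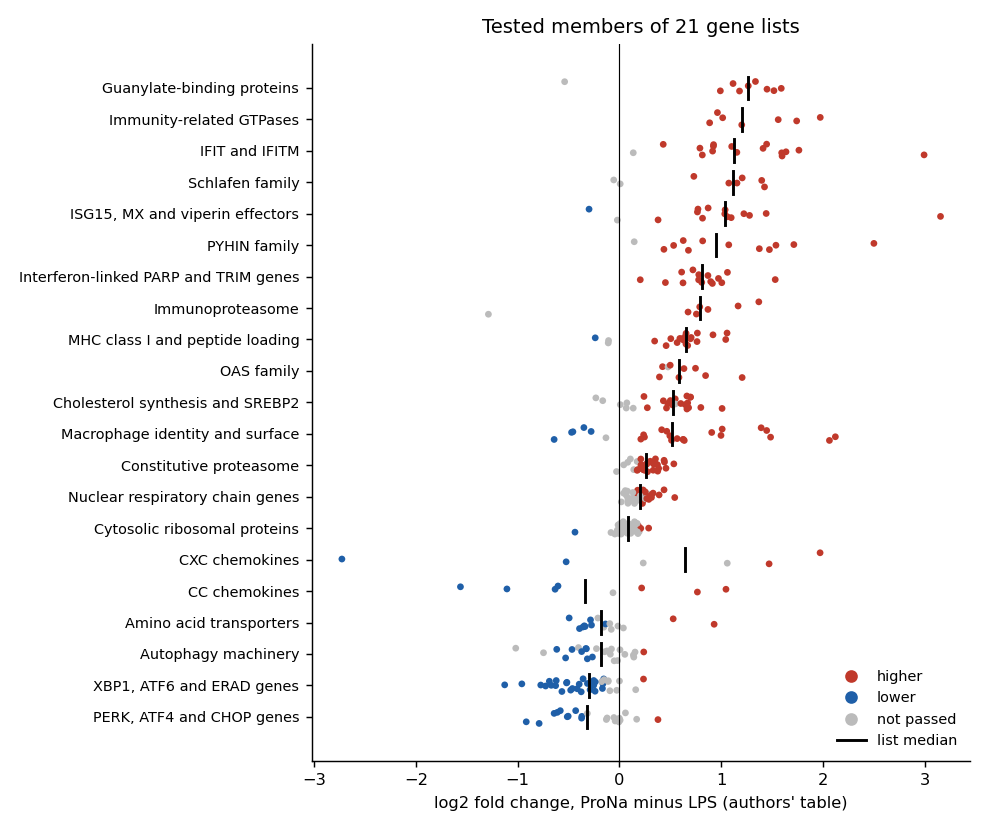
Log2 fold change of ProNa against LPS in the authors' deposited table for tested members of 21 gene lists, 1 point a gene, red where higher, blue where lower and grey where the test was not passed, with list medians as black bars. Medians run from 1.27 for guanylate-binding proteins to -0.33 for CC chemokines, with -0.31 for PERK, ATF4 and CHOP genes.

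Chaperones led the ER list in abundance. Hspa5, the ER chaperone BiP, had 318, 3073 and 1719.7 FPKM in CON, LPS and ProNa, so the ProNa level stayed above CON and below LPS. The authors' deposited table gave it a log2 fold change of -0.72 for ProNa against LPS (implied standard error 0.056, adjusted p = 1.7e-36). Other chaperones and folding enzymes fell too: Hsp90b1 had 1039 and 642 FPKM, Pdia4, which forms disulfides, 208 and 119 FPKM, Hyou1 301 and 179 FPKM, and Dnajb9, a co-chaperone induced by XBP1, 129.6 and 61.01 FPKM. Herpud1, which organises the ERAD machinery, fell from 219 to 91.8 FPKM with CON at 26.9, 2.18-fold by the authors' deposited table (adjusted p = 8.5e-65). Sel1l and Syvn1, the core of the ERAD ligase, had 79.3 and 66.9 FPKM in LPS and 51.2 and 46.5 FPKM in ProNa. The sensors fell as well. Ern1 (IRE1) had 17.5 and 10.4 FPKM and Atf6 32.6 and 24.6 FPKM. Xbp1 fell from 128 to 104 FPKM (adjusted p = 0.02 in the authors' deposited table), and splicing of its mRNA, which makes the active form, cannot be read from gene sums. The single rise was of Atf6b, from 59.4 to 64.3 FPKM, and it was lost on the FPKM scale.

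In the list of PERK, ATF4 and CHOP genes Ddit3, Ppp1r15a, Trib3 and Atf4 fell, and several amino acid synthesis genes were not called. Ddit3, which encodes CHOP, had 17.7, 503 and 247 FPKM in CON, LPS and ProNa (log2 -0.92, adjusted p = 7.4e-44 in the authors' deposited table). Ppp1r15a, which restores translation as GADD34, had 295 and 163 FPKM and Trib3, a pseudokinase that CHOP induces, 94.04 and 57.6 FPKM. Atf4 itself fell from 456 to 309 FPKM and the sensor gene Eif2ak3 (PERK) from 10.04 to 6.18 FPKM. The amino acid synthesis targets Asns (203 and 194 FPKM), Phgdh (164 and 144 FPKM) and Mthfd2 (84.6 and 75.1 FPKM) were not called, and Psat1 rose from 129 to 153 FPKM. Atf3 did not pass either (adjusted p = 0.072 in the authors' deposited table).

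Among related stress groups, falls were also more frequent than rises. The background is 17.5% rises and 15% falls over all genes tested on the authors' scale. On the FPKM scale falls outnumber rises over all genes too, with 1339 rises and 3238 falls among 11838. Of 20 aminoacyl-tRNA synthetases 6 fell and 1 rose (the authors' deposited table), while on the FPKM scale 12 fell and 0 rose, with Wars at 109 and 77.2 FPKM and Kars, the exception, at 68.5 and 75.3 FPKM. Of 16 amino acid transporters 8 fell and 2 rose (the authors' deposited table), and 10 and 2 on the FPKM scale. Slc3a2 and Slc7a11, the chains of the cystine importer, had 914 and 350.2 FPKM in LPS and 666 and 265.2 FPKM in ProNa. Slc7a8, a carrier of neutral amino acids, rose from 9.85 to 13.5 FPKM. Of 14 cytosolic heat shock genes 5 fell and 1 rose (the authors' deposited table), with Hspa1b, an inducible HSP70, at 10.7 and 6.403 FPKM. On the FPKM scale 7 fell and 0 rose. Of 24 autophagy genes 8 fell and 1 rose (the authors' deposited table), and 13 fell and 0 rose on the FPKM scale. Sqstm1 (p62), the autophagy receptor, had 230.4, 5174 and 3652 FPKM in CON, LPS and ProNa, and Map1lc3b (LC3) 121 and 86.6 FPKM.

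NRF2 targets split. Of these, 16 of 31 tested rose and 4 fell (the authors' deposited table), but 10 rose and 10 fell on the FPKM scale, so the direction of the list depends on the scale. Hmox1, which degrades haem, fell from 2495 to 1351 FPKM (1.69-fold in the authors' deposited table, adjusted p = 2.7e-24) with CON at 109 FPKM. Txn1, the electron donor thioredoxin, rose from 353 to 498 FPKM, and Keap1, the repressor of NRF2, from 34.1 to 50.9 FPKM. The glutamate-cysteine ligase subunit Gclc, Txnrd1 and Srxn1 were not called, and Nfe2l2, which encodes NRF2, was not called (70.2 and 62.8 FPKM).

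Chemokine genes went in both directions. Beside the counts below, 17.5% of all genes tested rose and 15% fell on the authors' scale. Of the 6 CXC chemokines tested 2 rose and 2 fell (the authors' deposited table). Cxcl3, a ligand of the neutrophil receptor CXCR2, stood at 30.9 FPKM in LPS and at 4.32 FPKM in ProNa and was listed at 0 in CON, a log2 fold change of -2.73 in the authors' deposited table (implied standard error 0.193, adjusted p = 5.0e-43). Cxcl2, another ligand of that receptor, had 3914 and 2469.7 FPKM, 1.44-fold lower in the authors' deposited table. The T cell attractant Cxcl10, which interferon induces, rose from 16.9 to 43.8 FPKM. Cxcl11, near the minimum, rose from 0.253 to 0.933 FPKM. It reached the minimum mean of 0.5 FPKM only through its ProNa level, so its rise carries little weight. In the CC family 3 rose and 4 fell of 8 tested (the authors' deposited table). The monocyte attractants Ccl2 and Ccl7 had 1059 and 75.3 FPKM in LPS and 625 and 45.3 FPKM in ProNa. Ccl5 had 428 and 182 FPKM (adjusted p = 0.04, the authors' deposited table), and Ccl9 rose from 709.5 to 1369 FPKM. Ccl3, at 6767 and 5917 FPKM, was not called, and the small rise of Ccl4 (3015 and 3205 FPKM) was lost on the FPKM scale.

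Receptors for chemoattractants rose in 7 of 12 tested cases, with 0 falls, on both scales (the authors' deposited table). Ccr1 had 30.1 and 54.8 FPKM and C5ar1, a complement receptor, 30.6 and 38.02 FPKM. Fpr3 had 0.61 and 3.22 FPKM, so with Fpr1 (0.68 and 1.5 FPKM) and Fpr2 all 3 formyl peptide receptors tested rose. Cx3cr1, the fractalkine receptor, rose from 0.71 to 2.84 FPKM, with CON at 184 FPKM.

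**Figure D5:**
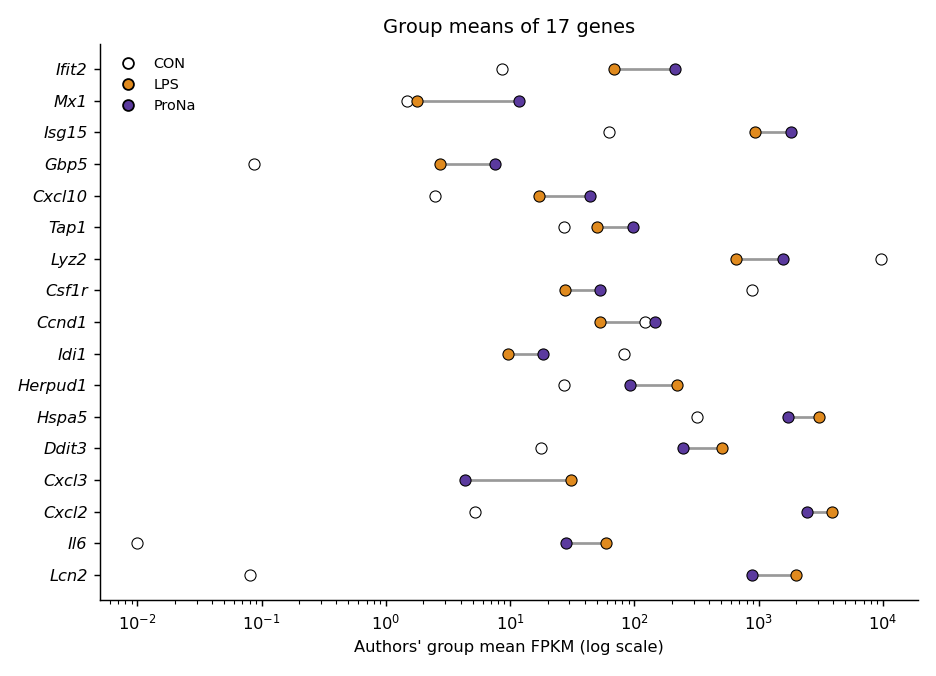
Authors' group mean FPKM (log axis) of 17 genes in CON (white), LPS (orange) and ProNa (purple), with the ProNa and LPS points of a gene joined. Interferon-linked genes lie further from CON in ProNa than in LPS, Lyz2, Csf1r and Idi1 lie closer to CON, and Herpud1, Hspa5 and Ddit3 lie between, while the point of Cxcl3 in CON is missing because it is listed at 0.

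Cytokine genes moved in both directions. The background is 17.5% rises and 15% falls over all genes tested on the authors' scale, and 1339 rises and 3238 falls among 11838 on the FPKM scale. In the IL-6, IL-12 and IL-10 families 7 rose and 3 fell of 16 tested (the authors' deposited table), and 7 rose and 6 fell on the FPKM scale. Il6 fell from 58.7 to 27.99 FPKM (log2 -0.95, implied standard error 0.1, adjusted p = 7.1e-20 in the authors' deposited table). Both chains of interleukin 27, Il27 and Ebi3, rose, from 15.01 and 86.1 to 40.3 and 104 FPKM, and Il15 and its receptor chain Il15ra rose from 7.51 and 6.17 to 11.98 and 9.38 FPKM. Il10 was low and not called (0.68 and 0.337 FPKM), but its receptor Il10ra rose from 11.5 to 19.7 FPKM. Il12b, near the minimum, fell from 0.793 to 0.267 FPKM and was listed at 0 in CON. It reached the minimum mean of 0.5 FPKM only through its LPS level, so its fall carries little weight.

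In the IL-1 family 5 of 10 tested rose and 2 fell (the authors' deposited table), and 4 and 2 on the FPKM scale. Shares over all genes tested were 17.5% rises and 15% falls on the authors' scale. Il1f9 (interleukin 36 gamma) fell from 24.04 to 8.803 FPKM and Il1a from 84.1 to 49.1 FPKM, while Il1b, at 225 and 293 FPKM, was not called. Il18 rose from 17.7 to 37.7 FPKM and Il1rl1, the receptor of interleukin 33, from 2.11 to 6.79 FPKM. Among inflammasome and death genes 8 of 19 rose and 1 fell (the authors' deposited table, 8 and 2 on the FPKM scale), with the sensor Nlrp3 at 21.5 and 38.7 FPKM, Casp1, which matures interleukin 18, at 169 and 228 FPKM and the pore former Gsdmd at 51.5 and 83.4 FPKM. Gsdme, a related pore former, fell from 10.8 to 5.55 FPKM.

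Of TNF ligands, receptors and adaptors 8 of 16 tested rose and 1 fell (the authors' deposited table), 8 and 3 on the FPKM scale. Shares over all genes tested were 17.5% rises and 15% falls on the authors' scale. Tnf had 324 and 424 FPKM and its receptor Tnfrsf1a 75.8 and 102 FPKM, whereas Tnfrsf1b fell from 256 to 189.9 FPKM. Tnfsf15, a ligand of death receptor 3, rose from 3.42 to 10.1 FPKM. Of 8 colony-stimulating factors and receptors 3 rose and 1 fell (the authors' deposited table), and 3 and 3 on the FPKM scale. Csf1r, the receptor for macrophage growth factor, had 27.7 and 53.1 FPKM against 888 in CON, and Csf3 (G-CSF) fell from 859 to 627 FPKM.

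Of the NF-kB subunits and feedback genes more rose than fell. Of the genes listed, 14 of 29 tested rose and 4 fell (the authors' deposited table), and 13 and 6 did so on the FPKM scale. On the authors' scale 17.5% of all genes tested rose and 15% fell, so the share of falls is near the background. Of all 3248 genes of 20 to 100 FPKM, 777 rose and 609 fell. The FPKM scale gives 1339 rises and 3238 falls among all 11838 genes. Nfkb1 had 71.8 and 99.2 FPKM, Nfkbia, its inhibitor, 171 and 214 FPKM and Rela, at 55.7 and 44.8 FPKM, was not called. Among the feedback genes Tnfaip3 (A20) fell from 58.6 to 31.8 FPKM, and the phosphatases Dusp1 and Dusp4 from 171 and 123 to 125 and 78.1 FPKM, while Socs3 rose from 78.7 to 102 FPKM and Tnip3 from 27.6 to 58.5 FPKM. Immediate early genes went from 9 rises and 3 falls of 21 tested on the authors' scale to 7 and 7 on the FPKM scale. Egr1 rose from 16.9 to 26.3 FPKM and Jun fell from 62.5 to 45.8 FPKM.

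Toll-like receptor genes and adaptors moved in both directions. Of 18 tested 5 rose and 5 fell (the authors' deposited table), and 5 and 6 on the FPKM scale. Over all genes tested 17.5% rose and 15% fell on the authors' scale. Tlr4 (15.6 and 15.1 FPKM) and its partner Ly96 (50.8 and 47.5 FPKM) were not called (adjusted p = 0.91 and 0.74, the authors' deposited table), and the co-receptor Cd14 rose from 1406 to 1975 FPKM. Myd88 rose from 45.6 to 61.2 FPKM, while Ticam1 (TRIF) and Ticam2 (TRAM), which lead to interferon, fell from 44.3 and 9.22 to 28.6 and 5.2 FPKM. Nos2, the inducible nitric oxide synthase, fell from 88.5 to 61.3 FPKM, and Ptgs2, the inducible cyclooxygenase, was not called at 1125 and 1148 FPKM. Their list of nitric oxide, arginine and prostaglandin enzymes held 4 rises and 4 falls of 17 tested (the authors' deposited table), 4 and 6 on the FPKM scale.

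Macrophage surface and identity genes were mostly higher. Of the genes listed, 19 of 25 tested rose and 5 fell (the authors' deposited table), and 15 and 6 did so on the FPKM scale. Lyz2, the macrophage lysozyme, had 9719, 661 and 1586 FPKM in CON, LPS and ProNa, 2.63-fold for ProNa against LPS in the authors' deposited table (log2 1.39, implied standard error 0.064, adjusted p = 2.1e-101). Lyz1, a close copy whose reads may be shared with it, had 1227, 40.6 and 155 FPKM. Both levels in ProNa stayed under those of CON. The high-affinity antibody receptor Fcgr1 rose from 41.7 to 106 FPKM, whereas Fcgr2b, the inhibitory receptor, fell from 66.02 to 44.5 FPKM and Fcgr3 from 32.4 to 21.4 FPKM. Adgre1, which encodes F4/80, also fell, from 65.5 to 47.1 FPKM. Cebpb, a factor of inflammatory activation, fell from 94.8 to 55.4 FPKM.

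Scavenger receptors and lectins rose in 12 of 18 tested cases, with 0 falls (the authors' deposited table), and 11 and 0 on the FPKM scale. For these and the next lists the background is 17.5% rises and 15% falls on the authors' scale. On the FPKM scale it is 1339 rises and 3238 falls among 11838 genes. Clec5a, a myeloid lectin, had 70.5 and 207 FPKM, Siglec1, a sialic acid receptor that interferon induces, 4.803 and 14.9 FPKM and Msr1, a receptor for modified lipoproteins, 212 and 306 FPKM. The phagocyte NADPH oxidase, which makes superoxide, rose in 7 of 8 tested genes (the authors' deposited table), with 5 rises and 1 fall on the FPKM scale. Its catalytic subunit Cybb had 524, 89.02 and 204 FPKM in CON, LPS and ProNa and the organiser Ncf1 304, 58.7 and 117 FPKM. Among secreted defence genes Lcn2, which binds bacterial siderophores, fell from 2004 to 879.9 FPKM and Saa3, an acute phase protein, from 111 to 52.5 FPKM, while Cst3, a cysteine protease inhibitor, rose from 598 to 1173 FPKM. Over that list 5 of 15 tested rose and 2 fell (the authors' deposited table), and 3 rose and 5 fell on the FPKM scale. Of 37 lysosomal genes 11 rose and 12 fell (the authors' deposited table), 8 and 16 on the FPKM scale, with the cathepsins Ctsc, Ctsl, Ctsk and Ctss among the rises (Ctsl 1158 and 1709 FPKM) and the channel Mcoln1 among the falls (80.9 and 41.6 FPKM).

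Most genes of cholesterol synthesis were higher in ProNa than in LPS. Of the genes listed, 18 of 25 tested rose and 0 fell (the authors' deposited table), and 14 and 2 did so on the FPKM scale. Beside these and the next counts, 17.5% of all genes tested rose and 15% fell on the authors' scale. On the FPKM scale 1339 rose and 3238 fell among 11838. Idi1, an isomerase of the pathway, had 82.4, 9.597 and 18.6 FPKM in CON, LPS and ProNa, so its ProNa mean lay between those of LPS and CON. Srebf2, the factor that drives the pathway, rose from 32.6 to 34.5 FPKM on the authors' scale but not on the FPKM scale, and Insig1, its retention factor, was not called. In fatty acid synthesis 5 of 18 tested rose and 1 fell (the authors' deposited table), 5 and 3 on the FPKM scale: Acly, which makes acetyl-CoA from citrate, rose from 87.8 to 146 FPKM and Fasn, the synthase, was not called (25.5 and 19.6 FPKM). Among LXR targets 5 of 13 tested rose and 1 fell (the authors' deposited table), and 4 and 3 on the FPKM scale. Lpl, a lipase, had 414, 29.8 and 84.7 FPKM in CON, LPS and ProNa, Soat1, which esterifies cholesterol, fell from 189.9 to 132 FPKM, and Apoe was not called.

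Genes that handle propionate itself gave few calls. In the propionyl-CoA list 2 rose and 2 fell of 24 tested (the authors' deposited table), fewer than the background shares of 17.5% and 15% would give, and 1 rose and 4 fell on the FPKM scale. Acss2, which activates acetate to acetyl-CoA, rose from 11.5 to 28.1 FPKM (2.52-fold in the authors' deposited table, adjusted p = 3.1e-38). The carboxylase chains Pcca and Pccb had 39.3 and 6.897 FPKM in LPS and 30.3 and 7.26 FPKM in ProNa, the mutase Mmut 8.33 and 7.43 FPKM, and of these Pcca fell. Of 8 tested short-chain fatty acid receptor and monocarboxylate transporter genes 1 rose and 1 fell (the authors' deposited table). On the FPKM scale 0 rose and 3 fell. The propionate receptors Ffar2 and Ffar3 were listed at 0 in all 3 groups. Hcar2, a receptor for butyrate and niacin, was expressed at 82.8 and 77.7 FPKM and not called. Of the monocarboxylate carriers, Slc16a1 (19.4 and 16.02 FPKM) and Slc16a3 (156 and 147 FPKM) were not called, and their chaperone Bsg rose from 257 to 296 FPKM on the authors' scale but not on the FPKM scale.

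Histone deacetylases, the enzymes short-chain fatty acids can inhibit, were measured in a list with acetyltransferases, sirtuins and bromodomain readers. Of the genes listed, 6 of 25 tested rose and 4 fell (the authors' deposited table), and 4 and 9 did so on the FPKM scale. On the authors' scale 17.5% of all genes tested rose and 15% fell, so the list as a whole does not stand out. Hdac1 and Hdac2 rose from 40.5 and 30.997 to 59.02 and 36.6 FPKM and Hdac3 was not called. The sirtuins Sirt3 and Sirt6 fell from 4.96 and 30.2 to 2.75 and 16.7 FPKM.

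In energy metabolism the counts depended on the scale. For the TCA cycle and glycolysis falls outnumbered rises on the FPKM scale, as over all 11838 genes tested (1339 rises and 3238 falls). Nuclear genes of the respiratory chain numbered 42 tested, of which 20 rose and 0 fell (the authors' deposited table, list median 0.20), but 4 rose and 0 fell on the FPKM scale. These are abundant genes. On the authors' scale 777 of all 3248 genes of 20 to 100 FPKM rose, and 455 of 1074 at 100 FPKM and over. For the TCA cycle the counts were 13 rises and 1 fall of 30 tested (the authors' deposited table) and 1 and 3 on the FPKM scale. Acod1, which makes itaconate from an intermediate of the cycle, rose from 954 to 1147 FPKM, and Idh2 fell from 17.5 to 10.8 FPKM. Glycolysis genes went from 10 rises and 4 falls of 26 (the authors' deposited table) to 4 and 6 on the FPKM scale, with Pgk1 up from 1464 to 2025 FPKM and Hk2 down from 29.5 to 22.02 FPKM. Of 15 mitochondrially encoded transcripts 8 rose and 1 fell (the authors' deposited table), 3 and 1 on the FPKM scale. Of 49 cytosolic ribosomal protein genes 3 rose and 1 fell, and of 42 mitochondrial ones 3 rose and 1 fell (the authors' deposited table), lower shares than those of all genes tested. On the FPKM scale 0 and 3 of the cytosolic genes and 2 and 6 of the mitochondrial genes rose and fell.

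Calls among genes of cell division went in both directions. Of 21 mitotic genes tested 2 rose and 3 fell (the authors' deposited table, 1 and 3 on the FPKM scale), where 17.5% of all genes tested rose and 15% fell. Among all 2715 genes of 1 to 5 FPKM 260 rose and 310 fell. Mki67, a marker of cycling cells, had 46.8, 0.68 and 0.563 FPKM in CON, LPS and ProNa. Of 29 replication genes 3 rose and 3 fell (the authors' deposited table, 3 and 5 on the FPKM scale), with Mcm6, a helicase subunit, among the rises at 54.9, 1.22 and 2.66 FPKM. Of the D-type cyclins Ccnd1 and Ccnd3 rose, and Ccnd2, at 0.803 and 0.7801 FPKM, was not called (adjusted p = 0.63, the authors' deposited table). Ccnd1 (cyclin D1) had 122, 52.9 and 148 FPKM, 3.04-fold for ProNa against LPS in the authors' deposited table (log2 1.6, implied standard error 0.071, adjusted p = 1.7e-110), and Ccnd3 59.7, 9.04 and 20.5 FPKM. The inhibitor Cdkn1a (p21) rose as well, from 259.9 to 346 FPKM, and the stress genes Gadd45a and Gadd45b fell from 102 and 104 to 54.97 and 54.3 FPKM. Over that list 6 of 21 tested rose and 5 fell (the authors' deposited table), and 5 and 8 on the FPKM scale.

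Markers of other cell types were low, and few were tested. Of 15 fibroblast and smooth muscle markers 2 were tested, Vim (1788 and 2441 FPKM) and Acta2 (13.7 and 17.6 FPKM), and both rose, whereas the defining collagen genes Col1a1 and Col3a1 stood at 0.187 and 0.0033 FPKM in LPS. The summed level of the tested list was 1801 FPKM in LPS and 2458 FPKM in ProNa, most of it Vim, which macrophages express too. Of 15 lymphocyte markers 2 were tested and Ighm rose from 1.26 to 2.32 FPKM, with 9 of the 15 at 0 in both groups. Over 14 neutrophil and erythroid markers only Csf3r was tested and it was not called. Of the endothelial markers 3 were tested, and Flt1, a receptor of vascular growth factors, rose from 4.32 to 8.16 FPKM. The part of such cells in the results was not tested. The epithelial list summed to 0.16 FPKM in LPS and 0.03 FPKM in ProNa over its 15 genes.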

How the data were processed

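RNA sequencing of RAW264.7 cells gave 9 samples, grouped by title, of which the LPS and ProNa samples enter the comparison. Per the submitters' processing notes, the authors used HISAT2, StringTie and DESeq2 with build GRCm39. Tool versions, strand handling and counting settings are not given in the sources used here. Reads of overlapping, antisense or near-identical genes cannot be told apart. The deposited FPKM values are per transcript, and the authors' group means (153363 transcripts, 12638 of them assembled) were summed per gene. The log2 fold changes and p-values are those the authors deposited for 53700 genes. An adjusted p listed as 1 was taken as no test. A table of 9 columns of single-library values has names that match no label, and these columns were not used in any step, nor was the annotation file. Depth is therefore unknown and no error of a group mean is given.

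Genes with a mean of at least 0.5 FPKM over both groups were kept, and the threshold was an adjusted p of 0.05. For 81 symbols with more than 1 identifier the one with the highest mean FPKM was used. Standard errors were derived from the deposited p-values, taken as from a Wald test. The FPKM scale shifts every fold change by the median difference from the log2 ratio of group means, without a pseudocount, and recomputes p-values from those standard errors. That median was taken over genes with nonzero means in both groups and a mean of at least 0.5 FPKM. The 65 gene lists (1341 entries) and the members were chosen with earlier results of these data known. Named genes were, among called genes, the 12 largest rises and falls by fold change with a mean of at least 5 FPKM. The 10 largest by FPKM difference were also taken among called genes. Per list, the 4 called members with the smallest adjusted p, its defining members and those called against its direction were named. The rule also named 5 markers. Some genes that the rule names are not reported here. Other list members named in the text were chosen after their values were seen. Promoters came from RefSeq (GRCm38.p6). Alternatives covered the minimum FPKM, threshold, adjustment, scale, pseudocount and assembled transcripts. The procedure was tested on simulated data. Python 3.11.15, pandas 2.3.3, numpy 2.4.6, scipy 1.17.1 and matplotlib 3.10.9 were used.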

Additional observations from a re-analysis of the deposited data

How the results depend on the processing

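The scale of the fold changes mattered most for counts over all genes. On the FPKM scale, which subtracts a constant from every fold change, 1339 genes were higher and 3238 lower. At least 1.5-fold, 532 were higher and 868 lower, where the authors' scale has 781 and 460. With a minimum mean of 5 FPKM 243 genes were at least 1.5-fold lower, since fewer genes were tested. Under no minimum, a minimum of 1 FPKM, an adjusted p of 0.01, adjustment over the genes past the minimum only, and reference transcripts only, the 4 counts over all genes stayed within 1.5 times their values. All 45 genes named for the size of their change or as markers kept their direction and their side of the threshold on the FPKM scale, and their direction in the log2 ratio of group means. Of 574 different list members called, 471 kept direction and call on the FPKM scale, 103 lost the call and 0 were called the other way. Among the lists with tested members the count of members higher stayed within 1.5 times in 46 and moved in 18 on the FPKM scale, and the count lower stayed in 38 and moved in 26. In place of the authors' fold changes, the log2 ratio of group means moved the list median by at least 1 SD of the members in 5 of 64 lists (a list with 1 tested member, which has no SD, counts as moved) and turned its sign in 15, at each pseudocount (0.1, 0.5 and 1). No paired analysis was possible because the columns of single-library values carry names that no label gives. For the same reason the planned limma fit, its replicate block and the fits without single replicates were not run. Depth could not be weighed, since no counts were used.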

Other observations

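Genes of the plasminogen system and matrix proteases were mostly higher in ProNa than in LPS. In that list 7 of 12 tested rose and 2 fell (the authors' deposited table), and 6 rose and 2 fell on the FPKM scale. The background for this and the next lists is 17.5% rises and 15% falls on the authors' scale. On the FPKM scale it is 1339 rises and 3238 falls among 11838 genes. Plaur, the receptor of urokinase, had 36.98, 316 and 609 FPKM in CON, LPS and ProNa, and Plau, which encodes urokinase, 29.3, 9.997 and 22.8 FPKM. The gelatinase gene Mmp9 fell from 12.6 to 8.54 FPKM. Of 11 alternative activation markers 6 rose and 3 fell (the authors' deposited table, 6 and 4 on the FPKM scale), with the scavenger receptor Cd36 at 176 and 274 FPKM among the rises, and the chemokine Ccl22 (1.68 and 0.52 FPKM) and the transglutaminase Tgm2 (5.34 and 2.21 FPKM) among the falls. Costimulatory and checkpoint ligands gave 4 rises and 4 falls of 15 tested (the authors' deposited table, 3 and 6 on the FPKM scale): Cd274, which encodes PD-L1, rose from 50.4 to 66.4 FPKM and Lgals9, galectin 9, from 139.9 to 234 FPKM, whereas Cd83 fell from 76.8 to 42.4 FPKM and Cd80 from 57.6 to 44.8 FPKM.

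In the BCL2 family 3 of 15 tested rose and 4 fell (the authors' deposited table), and 2 rose and 7 fell on the FPKM scale. Over all genes tested 17.5% rose and 15% fell on the authors' scale. The pro-apoptotic gene Bcl2l11 (BIM) rose from 41.8 to 53.2 FPKM and Bbc3 (PUMA) fell from 43.0 to 27.4 FPKM. Among purinergic and adenosine receptors 2 rose and 3 fell of 9 tested (the authors' deposited table), and 1 and 4 on the FPKM scale. P2rx7, the ATP-gated channel upstream of the NLRP3 inflammasome, fell from 20.7 to 12.3 FPKM. Complement genes rose in 5 of 10 tested cases, with 0 falls (the authors' deposited table), and 4 on the FPKM scale. Cfp, which encodes properdin, had 17.3 and 36.8 FPKM.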
